A study of Rattus norvegicus with 40 samples.

Results

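The regions described here are gene models that carry no gene symbol in the deposited tables. Each reached 5 FPKM in at least 1 group of T cell preparations from blood or kidney of the rat. The kidney preparations also contained RNA of other cells, as described below. The members were chosen by their own measured values. A gene model entered where the symbol was absent and where at least 1 of the 10 group values in the 5 tables comparing kidney with circulating T cells was 5 FPKM or more. FPKM counts sequenced fragments scaled by the length of the model and by the depth of the library. Of 31677 gene models, 16728 had no symbol, and 5034 of these met the rule. Of the 14949 models with a symbol, 10552 reached the same level and serve as the comparison. In all, 15586 models reached 5 FPKM. An identifier beginning MSTRG, the default prefix of the transcript assembler StringTie, stood on 5023 members. The other 11 carried an Ensembl rat gene identifier, beginning ENSRNOG.

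The animals were Dahl salt-sensitive (SS) rats, an inbred strain whose blood pressure climbs on a high-salt diet. T cells of the blood (circulating) and of the kidney were sequenced in 40 libraries, 4 for each of 10 groups, and each library was a pool of 3 rats. Rats came from 2 colonies of that strain, kept at different institutions and labelled SS/MCW and SS/CRL. The 5 groups of rats were SS/MCW on LS chow at 7 weeks of age, SS/MCW on LS chow at 10 weeks, SS/MCW on HS chow at 10 weeks, SS/CRL on LS chow at 10 weeks and SS/CRL on HS chow at 10 weeks. LS is low salt and HS is high salt, given for 3 weeks. Values per group are listed below in that order. Each of the 15 tables holds 1 FPKM per group, so no spread between libraries can be given, and nothing in the labels shows whether pools within a group came from separate experiments.

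As background, a transcript assembler joins aligned reads into models and names a model only when it overlaps an annotated gene in the right way. Models left without a name can be extensions of a known gene, spliced RNAs that code for no protein, copies of a gene that were retrotransposed into the genome, stretches of intron, or genes absent from the annotation used. T cell receptor genes are a special case: their variable segments are joined by DNA rearrangement in each T cell, and annotation of these segments is often partial.

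The kidney preparations contained RNA of other cells. The 8 T cell markers (Cd3e, Cd3d, Cd3g, Cd4, Cd8a, Cd2, Lck and Lat) summed to 4337 to 5566 FPKM in circulating cells and to 208 to 792 FPKM in kidney cells, and none was at 0. The 5 matched proximal tubule markers summed to 0.0617 to 0.537 FPKM in circulating cells and to 1248 to 7665 FPKM in kidney cells. The thick limb and distal tubule list ranged from 4.61 to 7.70 and from 1307 to 14062 FPKM, and the macrophage list from 45.9 to 63.7 and from 129 to 737 FPKM, with 1 of its 5 genes at 0 in all circulating groups. Red cell genes stood at 45.8 to 152 and at 352 to 3401 FPKM, while the 3 matched B cell markers stood at 22.5 to 44.1 and at 2.28 to 6.23 FPKM. The part of these cells in any kidney result below was not tested. In bulk samples, fewer cells of a type and less RNA per cell cannot be told apart.

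The models without a symbol were short. Of the 5034, 3616 (71.8%) stood alone in their locus, the genomic interval printed for a model, and the median length of those loci was 365 bases. The same median for symbol-bearing models alone in their locus was 23080.5 bases. Under 300 bases were 36.7% of the members alone in a locus and 0.0685% of the symbol-bearing models, and at 10000 bases or more were 6.83% and 75.3%. The shortest member was MSTRG.59259, 68 bases on the mitochondrial chromosome (chrM:15347-15415). The longest alone in its locus was MSTRG.18325, 435946 bases (chr14:47907851-48343797), with 12.0 to 14.7 FPKM in circulating and 3.31 to 5.22 FPKM in kidney cells. Another 1418 members shared the printed locus with other models, 1206 of them with a symbol-bearing one, so for these the interval is that of the whole bundle and not of the model. All positions are on build rn5, as the files give them, and the tables give no strand.

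**Figure D1:**
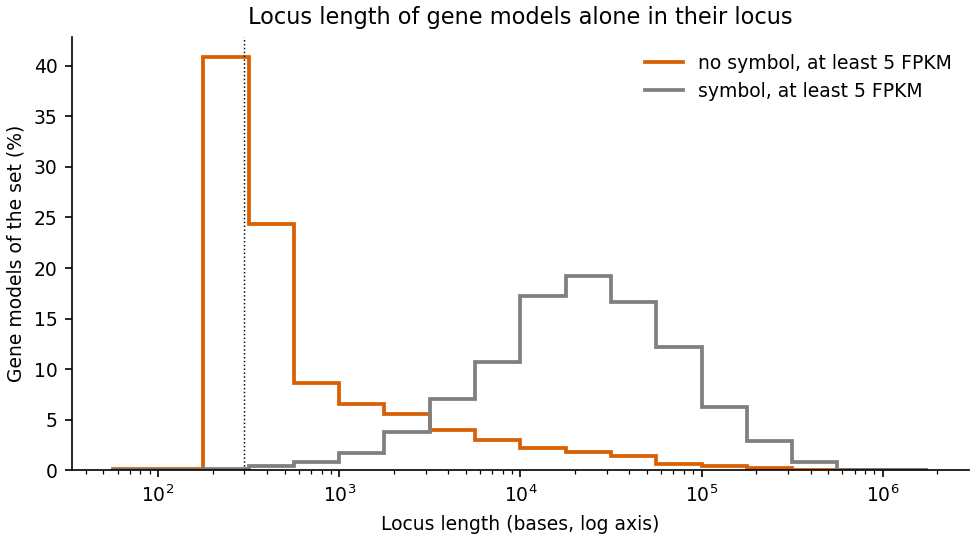
Share of gene models (%, vertical axis) by locus length (bases, log axis) for the 3616 models without a symbol and the symbol-bearing models that stand alone in their locus and reach 5 FPKM. The dotted line marks 300 bases. The orange curve peaks near that line, around its median of 365 bases, and the grey curve peaks near its median of 23080.5 bases.

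Members lay on all 20 autosomes, on X and on the mitochondrial chromosome. They made up 26.7% (chromosome 3) to 41.2% (chromosome 15) of the models that reached 5 FPKM on a nuclear chromosome. The nearest symbol-bearing model overlapped the locus of 1206 members, lay 1 to 1000 bases away for 796, up to 10000 bases away for 1091, up to 100000 for 1190 and farther for 749. Neighbouring members formed 654 runs with at most 10000 bases between loci, which held 1543 members. The largest run, 10 members in a single printed locus (chr20:6717523-7500321), lay in the RT1 region, the rat major histocompatibility complex, whose class I and class II products present peptides to T cells. The run of 9 members next in size lay in the T cell receptor alpha region (chr15:34388634-36056768). A run of 6 followed on chromosome 9 between Icos, a T cell costimulatory receptor, and Nrp2 (chr9:68228907-69236542), and another of 6 on chromosome 10 between Stx8 and Pik3r5 (chr10:54500710-54711662).

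The order of genes in RefSeq on assembly GRCr8 was used to ask what lies today between the same 2 flanking genes, a check chosen after the data were seen. Both flanking symbols were found on the same chromosome at a similar distance for 2928 members (58.2%). For 881 of these (30.1%) RefSeq lists no gene in the interval, for 493 it lists 1 and for 1554 it lists more. Where a single gene was listed, it was a lncRNA for 190 members, protein-coding for 132, a pseudogene for 103, a snoRNA for 27, a snRNA for 19 and a tRNA for 16. In 108 of the 132 protein-coding cases the symbol stood on no model of the tables, and 91 different genes were involved. Order between neighbours does not identify a model, and no member is given a gene's name here.

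Several intervals with a single protein-coding gene held a member at a high level. MSTRG.32118 (chr2, 8880 bases, next to Adamtsl4) had a median of 95.9 FPKM in circulating and 28.8 in kidney cells, and the gene listed in its interval is Mcl1, an inhibitor of apoptosis that lymphocytes need. MSTRG.11164 (chr10, next to Lrrc45) had 39.0 and 30.3 FPKM, with Cenpx, a centromere protein, in its interval. MSTRG.1828 (chr1:83020659-83024667) had 26.7 and 2.59 FPKM, and its interval between Rps19 and Arhgef1 holds Cd79a, a chain of the B cell receptor. The reverse order was seen for MSTRG.7973 and MSTRG.18913. MSTRG.18913 (chr14, 10023 bases, next to Smtn) had 0.655 FPKM in circulating and 31.8 in kidney cells, and the interval holds Selenom, a selenoprotein.

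Levels of members were lower and less even over the groups than those of symbol-bearing models. The highest of a member's 10 values had a median of 9.33 FPKM against 27.9 FPKM for symbol-bearing models, and reached 100 FPKM in 198 members and 1000 FPKM in 18. A level of 5 FPKM was met in all 10 values by 353 members (7.01%) and by 58.0% of the symbol-bearing models. It was met in exactly 1 value by 2292 members (45.5%) and by 4.44% of the symbol-bearing models, and that value was a kidney value for 2206 members. Values just inside the rule were 5.00093 FPKM for MSTRG.9134, 5.00271 for MSTRG.34002 and 5.00499 for MSTRG.4870. Just outside were MSTRG.36555 with 4.99999, MSTRG.18656 with 4.99813 and MSTRG.19099 with 4.99811 FPKM.

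The count of members at 5 FPKM was even in circulating cells and uneven in kidney cells. In circulating cells it was 991, 1012, 969, 1017 and 974 in the 5 groups of rats. In kidney cells it was 1335, 1862 and 1370 in the SS/MCW groups and 2660 and 2953 in the SS/CRL groups. The lowest kidney count stood above every circulating count, and both SS/CRL counts above all others. Symbol-bearing models at 5 FPKM numbered 7421 to 7559 in circulating and 8783 to 9136 in kidney groups, so that order of tissues was shared. Their SS/CRL kidney counts, 8783 and 8830, were the lowest of their kidney counts. The members' counts come from the values that chose them. Members that reached 5 FPKM in that group alone numbered 812 in kidney cells of SS/CRL on LS and 1045 on HS, against 44 to 214 in kidney cells of the SS/MCW groups and 6 to 30 in any circulating group. In all, 2175 members (43.2%) met the rule only through SS/CRL kidney values. Applied to the 6 SS/MCW values alone, the rule finds 2829 models. The members' share of all summed FPKM followed the same order of tissues, at 4.74% to 5.41% in circulating cells and at 8.60%, 12.4%, 8.14%, 16.6% and 14.1% in kidney cells.

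**Figure D2:**
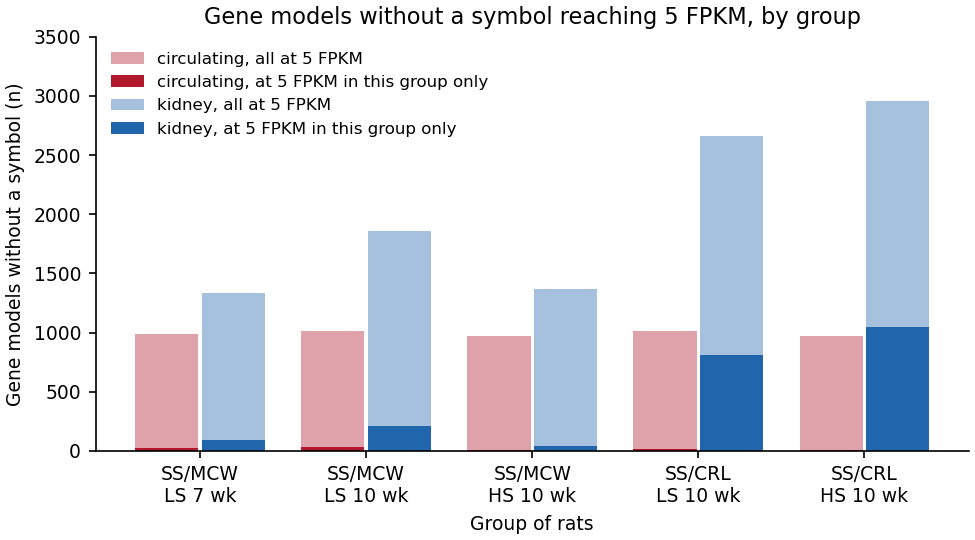
Number of gene models without a symbol that reach 5 FPKM (vertical axis) in each group of rats, for circulating (red) and kidney (blue) T cells. Pale bars count all such models and dark bars, drawn over them, those that reach 5 FPKM in that group only: 812 and 1045 in the SS/CRL kidney groups and at most 214 elsewhere.

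The highest members in circulating cells were a pair of models of a few kilobases. MSTRG.60068 (chrX:72916123-72920458, 4335 bases, between Ercc6l and Cited1) was the highest in circulating cells, with 5372, 4592, 5839, 4467 and 5166 FPKM. In kidney cells it stood at 712, 1011, 1068, 731 and 845 FPKM, below every circulating value. RefSeq lists Rps4x, which encodes a protein of the small ribosomal subunit, and 2 pseudogene or uncharacterised entries in that interval. MSTRG.5588 (chr1:234177685-234180823, between Ms4a18 and Ms4a8, in the family that includes the B cell antigen CD20) had 1785, 1725, 1996, 1716 and 1986 FPKM in circulating and 109, 198, 397, 99.9 and 105 FPKM in kidney cells. For both members every circulating value lay above every kidney value, as for 28.5% of all models reaching 5 FPKM and 15.4% of members. Both were picked for their circulating level, so nothing is read from this.

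Other members high in circulating cells differed in how they compared with kidney. MSTRG.20600 (chr15:42479335-42549422, with Fgf9 the nearest symbol-bearing model at 259046 bases) had a median of 957 FPKM in circulating and 30.0 FPKM in kidney cells. MSTRG.41786 (chr4:209843367-209852192, between Hrh1 and the autophagy gene Atg7) had 680 and 26.5 FPKM. Both were lower in every kidney group. MSTRG.45317 (chr5:141852920-141853387) had 892 and 548 FPKM, with every kidney value below every circulating one. For MSTRG.60543, in a locus shared with Tuba1a, at 688 and 646 FPKM, the values of the tissues overlapped. MSTRG.10861 (chr10:104308187-104313609), in an interval where RefSeq lists Atp5pd, a subunit of the mitochondrial ATP synthase, had 595 FPKM in circulating and 1414 in kidney cells.

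Some short members lie where RefSeq lists a processed copy of a ribosomal protein gene. MSTRG.9302 (chr10:72190115-72190211, 96 bases, next to Car4) had 1373, 761, 1055, 799 and 1755 FPKM in circulating cells and 104, 211, 331, 0 and 515 FPKM in kidney cells, and the only entry in its interval is Rpl37a-ps3. MSTRG.25334 (chr17:80517906-80518346, next to Olah) had a median of 579 and 343 FPKM, with Rpl34-ps1 among 3 entries. Reads from such copies and from their parent genes can be hard to tell apart, and how the counting split them is not given in the sources used here, so these levels are uncertain.

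In kidney cells the highest member was the mitochondrial MSTRG.59259, with 2630, 14186, 5428, 11955 and 10381 FPKM. Its circulating values were 1175, 287, 0, 452 and 195 FPKM, and its 68 bases are fewer than in any other member. The only other mitochondrial model, MSTRG.59260 (chrM:15665-16212), had 644, 3061, 929, 1895 and 1920 FPKM in kidney and 41.3 to 64.3 FPKM in circulating cells. No mitochondrial model carried a symbol. Both members were lowest in kidney cells of SS/MCW rats at 7 weeks and highest at 10 weeks on LS.

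Other members were near 0 in circulating cells. MSTRG.22783 (chr16:53944251-53944511, 260 bases, 8834 bases from Mtus1) had 1374, 4998, 1068, 15446 and 6781 FPKM in kidney cells and was listed at 0 in 4 of 5 circulating groups, with 0.136 FPKM in the other. The only gene that RefSeq lists between its flanking genes Pcm1 and Mtus1 is Fgl1, which encodes a secreted ligand of the T cell receptor LAG3 and is best known from liver. The order of its 5 kidney values, from SS/CRL on LS down to SS/MCW on HS, was that of the summed proximal tubule markers, at 1469, 2015, 1248, 7665 and 2362 FPKM. Among the single markers Miox and Slc22a6 kept that order, while Slc34a1, Slc22a12 and Slc5a2 did not. Slc34a1, for one, stood at 573 FPKM at 7 weeks and 488 at 10 weeks on LS in SS/MCW rats. MSTRG.7973 (chr10:40011885-40027699, 344 bases from Tnip1) had 1230, 2620, 1176, 6590 and 2805 FPKM in kidney cells and 0.0225 to 0.419 FPKM in circulating cells. Its values followed the same order, and the only gene in its interval is Gpx3, a secreted glutathione peroxidase that the proximal tubule is known to make. MSTRG.19650 (chr15:3621043-3621253, 299 bases from Plau, the urokinase gene) had 6226, 1835, 2353, 3306 and 2403 FPKM in kidney cells and was listed at 0 in 4 circulating groups. MSTRG.6868 (chr10:3757479-3759697), between Rmi2 and Socs1, had 1855, 4428, 2046, 5530 and 6349 FPKM in kidney cells and 0 to 43.2 FPKM in circulating cells.

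Between the tissues, 76.4% of members reached 5 FPKM in kidney values only, 10.4% in circulating values only, and 666 members in both. The shares among symbol-bearing models were 26.8% and 5.85% for the single tissues. Listed at 0 in all circulating groups were 1212 members (24.1%) and 1.60% of symbol-bearing models. With the SS/MCW values alone the kidney-only share was 59.4% of the unsymbolled and 25.8% of the symbol-bearing models. These counts follow from the values that chose the members and are given as a description, with no test.

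A kidney level at least 4 times the circulating level in all 5 groups of rats, with 5 FPKM in every kidney value, was seen in 437 members (8.68%), against 13.8% of all models reaching 5 FPKM. The reverse, circulating at least 4 times kidney, was seen in 234 members (4.65%), against 4.56% of all. The first share lies below the background and the other close to it, and the rule used both contrasts. Loci of the 133 circulating-high members that stood alone had a median of 1215 bases, those of the 278 kidney-high members 871 bases, and those of members in neither class 345 bases. Over the 1861 members above 0 in all 10 values, the median log2 kidney over circulating ratio was 0.71, against 0.03 over symbol-bearing models. It was 0.056 where rule and medians used the SS/MCW values alone.

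The members with the largest kidney excess were ranked on the log2 scale of the tissue ratio. After MSTRG.7973, with a median of 14.06, came MSTRG.54045 at 12.39 in a bundle shared with Fli1, MSTRG.5923 at 12.15, 506 bases from Glis3, MSTRG.58526 at 11.74, 674 bases from the basement membrane collagen gene Col4a4, and MSTRG.31183 at 11.31, 178 bases from the transcriptional coactivator gene Wwtr1. Wwtr1 itself had medians of 0.0220 FPKM in circulating and 27.9 in kidney cells, beside 0.0148 and 26.1 for MSTRG.31183. Col4a4 had 0.0120 and 32.2 FPKM, beside 0.0162 and 55.5 for MSTRG.58526. In both cases the model without a symbol and its neighbour stood at like levels in both tissues. That did not hold for MSTRG.7973, whose nearest symbol-bearing model, Tnip1, had a median log2 ratio of -1.16.

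At the other end, MSTRG.12029 (chr11:57822919-57832917) lay 69 bases from Trat1, which encodes an adaptor of the T cell receptor complex, and its median log2 ratio was -8.03. It stood at 14.2 FPKM in circulating and 0.0769 in kidney cells, and Trat1 at 61.5 and 0.972 FPKM. MSTRG.40424, in the T cell receptor beta region, followed at -7.33, MSTRG.47160 near Cox7a2l at -7.21, MSTRG.2004 near Psmc4 at -7.05 and MSTRG.8181, in a bundle with Rai1, at -6.77. The neighbours Cox7a2l and Psmc4 are housekeeping genes and had ratios of -1.72 and 0.01, far from those of the members beside them.

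The tissue ratio of a member was closest to that of its nearest symbol-bearing model when the pair lay within 1000 bases. Over the 406 such pairs with values above 0 throughout, 75.1% (95% exact binomial interval 70.6% to 79.3%, which covers counting only) had the same sign and Pearson's r across pairs was 0.73. Overlapping loci gave 0.40 (528 pairs), gaps up to 10000 bases 0.35 (295 pairs), up to 100000 bases 0.11 (283 pairs) and farther 0.22 (152 pairs). Symbol-bearing models paired with their own nearest neighbour within 1000 bases gave 54.5% and 0.14 (1675 pairs). All pairs share the same libraries, members can share a neighbour, and these values describe models and not samples.

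**Figure D3:**
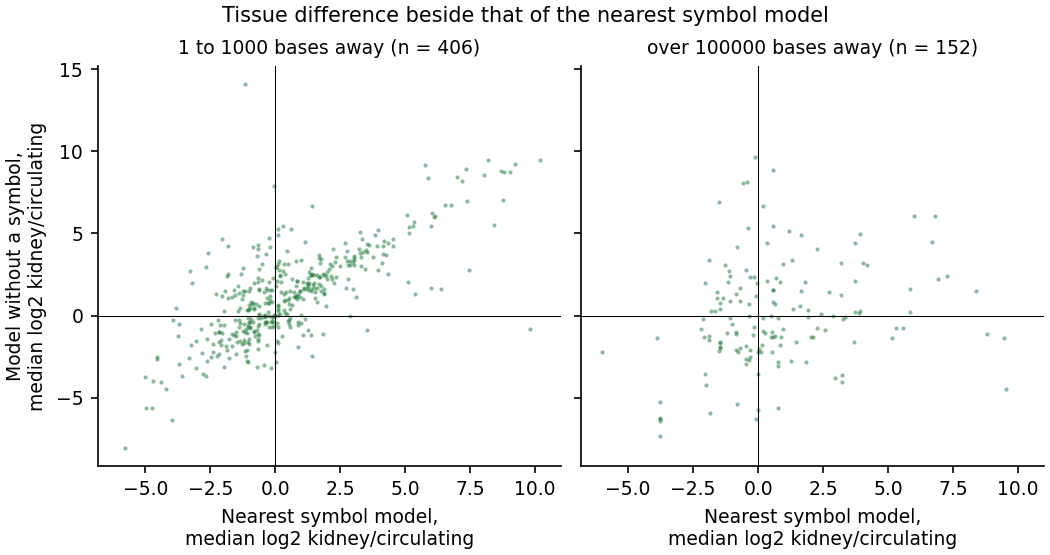
Median log2 ratio of kidney to circulating FPKM over the 5 groups of rats for a model without a symbol (vertical axis) and for its nearest symbol-bearing model (horizontal axis). Each point is 1 pair: 406 pairs with 1 to 1000 bases between the loci on the left, where the points follow a rising line (r = 0.73), and 152 pairs more than 100000 bases apart on the right (r = 0.22).

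The T cell receptor regions, chosen for description after values were seen, held 39 of the 234 circulating-high members. The T cell receptor is the heterodimer through which a T cell recognises peptide, and its alpha and beta chains are assembled from separate variable and joining segments. The alpha region, from the first to the last model with a Trav or Trac symbol (chr15:32856855-36667380), held 32 members and only 4 symbol-bearing models at 5 FPKM. The beta region, between Moxd2 and Ephb6 (chr4:133915611-135690321), held 17 members and 1 symbol-bearing model at that level. In all 49 members the lowest circulating value lay above the highest kidney value, which held for 28.5% of all models reaching 5 FPKM. Circulating values were at least 4 times kidney in all groups, and 5 FPKM or more, for 23 of 32 and 16 of 17. The same held for 4.56% of all models reaching 5 FPKM. Of the 49, 42 had every kidney value under 5 FPKM and so met the rule through circulating cells alone, and nothing is read from these counts.

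The members of the beta region stood higher. Their median circulating level had a midpoint of 56.0 FPKM and reached 168 FPKM in MSTRG.40408 (chr4:133930696-134074099), while the midpoint in kidney cells was 0.883 FPKM. MSTRG.40407 (chr4:133927822-133929048) had 135 and 2.15 FPKM, MSTRG.40418 (chr4:134170150-134193012) 128 and 2.96 FPKM, and MSTRG.40449 (chr4:135630187-135631180, beside the model with the symbol TCRB) 82.4 and 3.27 FPKM. In the alpha region the midpoint was 7.75 FPKM in circulating and 0.0984 in kidney cells, and the highest were MSTRG.20292 with 119 and 1.96 FPKM and MSTRG.20358 (chr15:36106480-36667380, in a locus with Trav19) with 47.8 and 2.92 FPKM. The first of these stood in a bundle of 41 models, so its own ends are not known.

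Summed over its members, the kidney level of the alpha region ranged from 1.89% of the circulating level in SS/CRL rats on LS to 8.23% in SS/MCW rats on HS, with a value of 3.65% in SS/MCW on LS at 10 weeks and 4.95% in SS/CRL on HS. Over the 5 groups of rats the beta region gave 1.47%, 2.97%, 5.91%, 1.67% and 2.00%, and the list of 8 T cell markers 4.02%, 10.4%, 15.0%, 6.27% and 4.17%. All 3 percentages were highest in SS/MCW rats on HS. The circulating sums moved little, between 409 and 454 FPKM for the alpha and between 1037 and 1175 FPKM for the beta region.

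**Figure D4:**
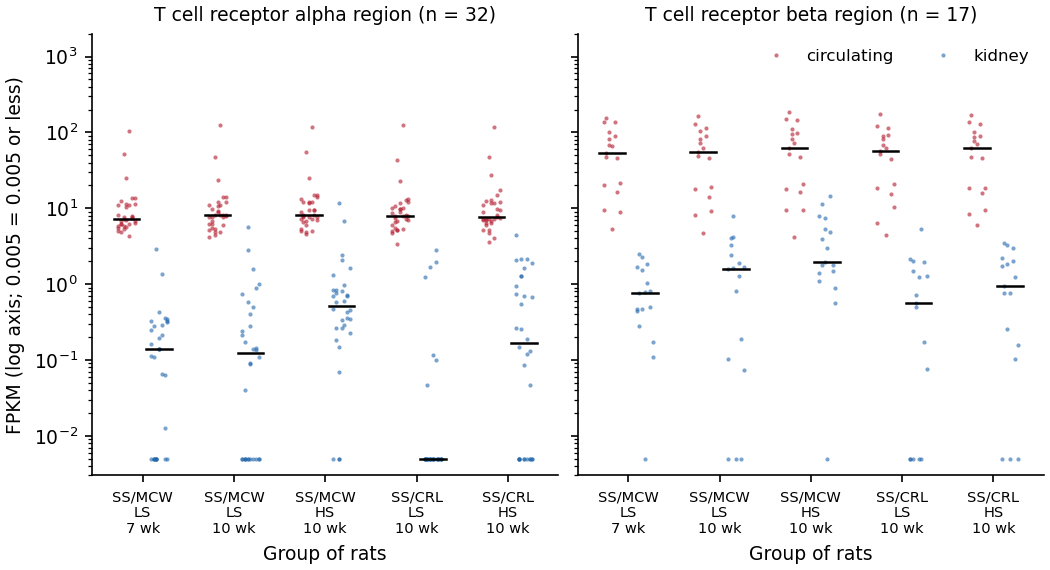
FPKM (log axis) of the 32 and 17 models without a symbol in the T cell receptor alpha and beta regions, in circulating (red) and kidney (blue) T cells of each group of rats. Each point is 1 model, with its single group value, and bars are medians over models. Points at 0.005 stand for 0.005 FPKM or less. Every circulating value of a model lies above its kidney values.

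Of the receptor members, 3 of 32 in the alpha region and none of 17 in the beta region were called in any of the 10 comparisons within a tissue, against 10.2% of all models tested. A call means a q under 0.05 in the authors' deposited table, as adjusted by the authors over all models tested there, with a status of OK. MSTRG.20292 rose in kidney cells of SS/MCW rats on HS, from 0.565 to 7.60 FPKM (log2 change 3.75, q = 0.0179 in the authors' deposited table). It was also higher in kidney cells of SS/CRL than of SS/MCW rats on LS, at 2.13 against 0.544 FPKM (q = 0.00524 in the authors' deposited table). In the RT1 region (chr20:5857658-7500321) 13 members stood beside 58 symbol-bearing models. In 10 of the 13 every circulating value lay above every kidney value, against 28.5% of all models reaching 5 FPKM. The median log2 kidney over circulating ratio was -2.70 over the 11 members of the region above 0 throughout and 0.32 over the symbol-bearing models. Of the 13 members, 4 had every kidney value under 5 FPKM and met the rule through circulating cells alone, so nothing is read from the count or the median. The highest, MSTRG.33634, had 119 and 2.48 FPKM. In that region MSTRG.33598, which shares a locus with a class II gene labelled RT1-Db2, fell in circulating cells from 93.6 FPKM at 7 weeks to 49.9 at 10 weeks (q = 0.0069 in the authors' deposited table).

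Within tissues, 681 members (13.5%) were called in at least 1 of the 10 comparisons, against 10.2% of all models tested, and 517 of them in only 1. The rule did not use these contrasts directly, but it admits a model through a single high value, so a member at 5 FPKM in 1 group alone had to differ from the other groups. Each count is therefore set beside the share of all models called and beside the 353 members at 5 FPKM in all 10 values. Fold changes and q values are from each comparison's own table, in which the level of a group differs from the levels above by a constant factor. Relative to the median over the tables that hold a group, the factors ran from 0.884 to 1.11.

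HS against LS in kidney cells of SS/MCW rats gave few calls. Of 3584 members tested, 8 were higher and 17 lower on HS, against 0.258% and 0.175% of all models. In 15 of the 25 a group was listed at 0, and of the 353 members at 5 FPKM throughout 1 was lower. Of the 8 rises, 5 began at a listed 0. The largest of the others after MSTRG.20292 was MSTRG.36567, in a bundle with Cerkl, from 1.70 to 7.29 FPKM. It was followed by MSTRG.33999, 33 bases from the salt-inducible kinase gene Sik1, from 9.76 to 33.8 FPKM. Among falls to a value above 0 the largest were MSTRG.987, from 194 to 33.0 FPKM, MSTRG.20149, from 150 to 27.2, and MSTRG.27378, from 41.1 to 7.77 FPKM. Falls to a listed 0 included MSTRG.31933, from 23.4 FPKM. Between the same groups red cell genes summed to 3401 and 352 FPKM, macrophage markers to 315 and 737 and T cell markers to 466 and 792, and their part in these changes was not tested.

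The same comparison in SS/CRL kidney cells gave 309 calls among 4461 members tested. Higher on HS were 128 and lower 181, against 2.44% and 3.07% of all models. A group was listed at 0 in 136 of these, 107 of them in the LS group, and 187 had 5 FPKM in 1 of the groups only. Of the members at 5 FPKM throughout, 7 were lower and none higher. MSTRG.31282 (chr2:173281478-173288794), 1402 bases from Mme, which encodes the peptidase neprilysin, rose from 0.395 to 6.79 FPKM while Mme stood at 26.0 and 29.4. MSTRG.49482, in a bundle with Prima1, fell from 42.6 to 2.89 FPKM, and Prima1 fell with it from 41.0 to 5.84 (q = 0.00171 in the authors' deposited table). MSTRG.47688 fell from 7.22 to 0.373 and MSTRG.1477 from 21.6 to 1.53 FPKM. The symbol-bearing neighbour was tested for 252 of the 309 members, called in the same direction for 28 and in the opposite direction for 5, and 6.48% of all such neighbours tested were called.

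In kidney cells, 3 of the 3281 members tested in both salt comparisons were called lower on HS in each, against 0.0414% of all models. MSTRG.22783 fell from 5764 to 1193 FPKM in SS/MCW (log2 change -2.27, q = 0.0179 in the authors' deposited table) and from 17243 to 7500 in SS/CRL rats (log2 change -1.20, q = 0.00171 in the authors' deposited table). MSTRG.344 (chr1:17295640-17296687, 1775 bases from Map7) fell from 26.1 to 5.89 and from 88.8 to 31.4 FPKM. MSTRG.987 (chr1:50928608-50928951, 476 bases from Agpat4) fell from 194 to 33.0 and from 515 to 196 FPKM. Proximal tubule markers summed to 2015 and 1248 FPKM on LS and HS in SS/MCW and to 7665 and 2362 in SS/CRL kidney cells. Red cell genes summed to 3401 and 352 FPKM and to 2421 and 520. The part of either in these falls was not tested. A single member was called in opposite directions by the authors' deposited tables, against 0.0178% of all models called lower in SS/MCW and higher in SS/CRL: MSTRG.25915 (chr18:24220577-24220845, 268 bases) fell from 12.7 FPKM to a listed 0 in SS/MCW and rose from a listed 0 to 8.69 FPKM in SS/CRL rats. Between 7 and 10 weeks on LS in SS/MCW kidney cells MSTRG.25915 stood at 0.138 and 12.7 FPKM, with neither group listed at 0. It was not called there (q = 0.586 in the authors' deposited table). Both kidney salt comparisons rest on separate groups.

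Comparing the rat types in kidney cells, members were more often higher in SS/CRL than lower. On LS, 98 of 3861 tested were higher and 18 lower, against 1.36% and 0.444% of all models, and on HS 200 of 4435 were higher and 51 lower, against 2.75% and 2.97%. A group was listed at 0 in 45 and in 155 of these calls. Of the members at 5 FPKM throughout, 1 was higher and 1 lower on LS, and 5 were higher and 10 lower on HS, so the excess of higher calls was not present there. The median log2 change over members above 0 in both groups was 0.50 on LS and 0.83 on HS, against -0.01 and 0.12 over all models. Those medians include the members that the SS/CRL kidney values chose.

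On LS, MSTRG.27219 (chr18:79862274-79868890, nearest to Tshz1) was higher in SS/CRL, at 44.4 against 2.54 FPKM, followed by MSTRG.19553, 488 bases from Sptbn1, at 21.7 against 1.38, and MSTRG.48383 at 15.0 against 1.19. Lower in SS/CRL were MSTRG.16568 at 1.33 against 11.2 FPKM, 1199 bases from the pericyte gene Rgs5, MSTRG.6085 at 4.73 against 29.4 and MSTRG.30022 at 4.32 against 26.7. On HS, 8 called members were listed at 0 in SS/CRL. Among called members with no 0 and 5 FPKM in the higher group, the one furthest below SS/MCW had a high circulating level. MSTRG.41786 stood at 11.9 FPKM in SS/CRL against 168 in SS/MCW (log2 change -3.81, q = 0.00149 in the authors' deposited table). MSTRG.5649, 254 bases from the macrophage gene Mpeg1, stood at 1.44 against 17.5, and MSTRG.35358, 290 bases from Ntng2, at 0.775 against 8.19 FPKM. Ntng2 itself was lower too, at 0.730 against 11.6 FPKM. MSTRG.5588 was also lower, at 119 against 458 FPKM. In the same groups the T cell markers summed to 208 FPKM in SS/CRL and 792 in SS/MCW, and the macrophage markers to 133 and 737, and their part in these differences was not tested. Among the members higher in SS/CRL than in SS/MCW on HS, the largest ratios without a 0 were those of MSTRG.7129, at 52.2 against 5.10 FPKM, and MSTRG.15170, at 10.4 against 1.08.

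Between 7 and 10 weeks on LS, 41 members were higher and 11 lower in SS/MCW kidney cells at 10 weeks, of 3515 tested, against 0.774% and 0.297% of all models. A group was listed at 0 in 25 of the 52 calls, and of the members at 5 FPKM throughout 3 were higher and 1 lower. MSTRG.18303 rose from 175 to 1566 FPKM, MSTRG.48857 from 5.88 to 52.5 and MSTRG.20149 from 17.2 to 150 FPKM. The mitochondrial MSTRG.59260 rose from 720 to 3442 FPKM (log2 change 2.26, q = 0.00983 in the authors' deposited table). MSTRG.19650, the member beside Plau, fell from 7001 to 2094 FPKM, and Plau stood at 517 and 332 FPKM without a call. MSTRG.23195, 53 bases from Sfrp1, an inhibitor of Wnt signalling, fell from 24.4 to 8.85 FPKM, and MSTRG.33832, 347 bases from Scube3, from 12.2 to 4.73 FPKM. Thick limb and distal tubule markers summed to 14062 FPKM at 7 and 4165 at 10 weeks, of which Umod alone gave 12856 and 3565. Slc12a1 and Slc12a3 were also lower at 10 weeks, while Aqp2 stood at 61.5 and 135 FPKM and Calb1 at 29.1 and 39.1. Red cell genes summed to 545 and 3401 FPKM. The part of these genes in the changes was not tested.

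In circulating cells 1915 to 1981 members were tested in each comparison. HS against LS called 3 members higher and 2 lower in SS/MCW rats, against 0.0355% and 0.0711% of all models, and 7 higher and 29 lower in SS/CRL rats, against 0.216% and 0.454%. SS/CRL against SS/MCW called 8 higher and 8 lower on LS, against 0.412% and 0.129%, and 3 higher and 3 lower on HS, against 0.2% and 0.0412%. Between 7 and 10 weeks 35 members were higher and 42 lower, against 1.02% and 0.918%, so age gave 77 calls in circulating and 52 in kidney cells, while the other comparisons gave fewer calls in circulating cells. Among the members at 5 FPKM throughout, the age comparison called 4 higher and 24 lower and the SS/CRL salt comparison 2 higher and 10 lower, so most of these calls were falls.

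MSTRG.30103 (chr2:79692324-79693768, 269679 bases from Slc1a3) fell on HS in circulating cells of both rat types, against 0.0305% of all models called lower in both. It went from 47.1 to 24.2 FPKM in SS/MCW (log2 change -0.96, q = 0.0469 in the authors' deposited table) and from 45.0 to 23.8 in SS/CRL (log2 change -0.92, q = 0.0106 in the authors' deposited table). It had risen between 7 and 10 weeks on LS, from 18.2 to 47.0 FPKM, and in kidney cells it stood at 0.131 FPKM or less in those comparisons. MSTRG.39404 (chr4:7826597-7831056, between Fam126a and Tomm7) rose on HS in SS/CRL, from 66.9 to 197 FPKM (log2 change 1.56). MSTRG.49853 (chr6:150924915-150925432), whose nearest symbol is the immunoglobulin heavy chain segment Ighv13-1 at 90435 bases, rose from 1.35 to 7.20 FPKM. The B cell markers summed to 40.5 and 44.1 FPKM in the same groups.

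Some short members, on chromosomes 17, 4 and 8, moved alike in circulating cells. MSTRG.24719 (chr17:50684574-50684799, 225 bases, nearest to Gli3) fell from 1499 to 640 FPKM between 7 and 10 weeks, was higher in SS/CRL than SS/MCW on LS, at 1049 against 659, and fell on HS in SS/CRL from 1052 to 378 FPKM. MSTRG.25334, also on chromosome 17, fell from 1094 to 521, was higher at 797 against 537, and fell from 799 to 394 FPKM. MSTRG.39979 on chromosome 4 and MSTRG.53544 on chromosome 8 were called in the same direction in each of those comparisons. MSTRG.31198, near Rnf13, also fell with age and on HS in SS/CRL, from 43.0 to 13.9 and from 26.5 to 7.99 FPKM. In circulating cells the 2 platelet genes summed to 108 FPKM at 7 and 29.0 at 10 weeks, and red cell genes to 152 and 45.8. On LS and HS in SS/CRL the sums were 25.3 and 49.3 for platelet and 65.0 and 121 for red cell genes, so both were higher on HS. Their part in these falls was not tested. Higher in SS/CRL on LS as well were MSTRG.35749, at 9.22 against 3.14 FPKM, and MSTRG.1828, at 32.2 against 18.8, beside B cell marker sums of 40.5 against 22.5 FPKM.

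A total of 9 members (0.179%) were called in 4 or more of the 10 comparisons, against 0.0855% of all models tested. MSTRG.20149 (chr15:31571314-31571691, 377 bases) was called in 6. Its levels were 12.9, 1.65, 16.9, 3.30 and 3.48 FPKM in circulating cells and 15.4, 132, 24.3, 106 and 102 FPKM in kidney cells, so in SS/MCW rats the group lowest in the blood was the highest in the kidney. In circulating cells it fell between 7 and 10 weeks (log2 change -2.98) and rose on HS in SS/MCW (log2 change 3.37), and in kidney cells it rose with age (3.12) and fell on HS (-2.47). Parp2, a DNA repair enzyme gene 149 bases away, was called in none of these 4 comparisons and stood between 8.39 and 15.2 FPKM. MSTRG.18303 (chr14:46507355-46507817, 462 bases) was also called in 6, with 640, 424, 395, 198 and 172 FPKM in circulating and 156, 1352, 270, 579 and 634 FPKM in kidney cells. In circulating cells it fell with age and was lower in SS/CRL on both chows, and in kidney cells it rose with age and fell on HS in SS/MCW rats. MSTRG.344 was called in 5 comparisons, all in the kidney. MSTRG.31933 (chr2:209079474-209079687) was at 20.0 and 11.9 FPKM in kidney cells of SS/MCW on LS at 10 weeks and of SS/CRL on HS and at 0 in the other 3. MSTRG.25915 was high in the same kidney groups, at 10.9 and 7.73 FPKM, with 0.121 FPKM at 7 weeks and 0 in the other two. Comparisons that share a group are not independent of each other.

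**Figure D5:**
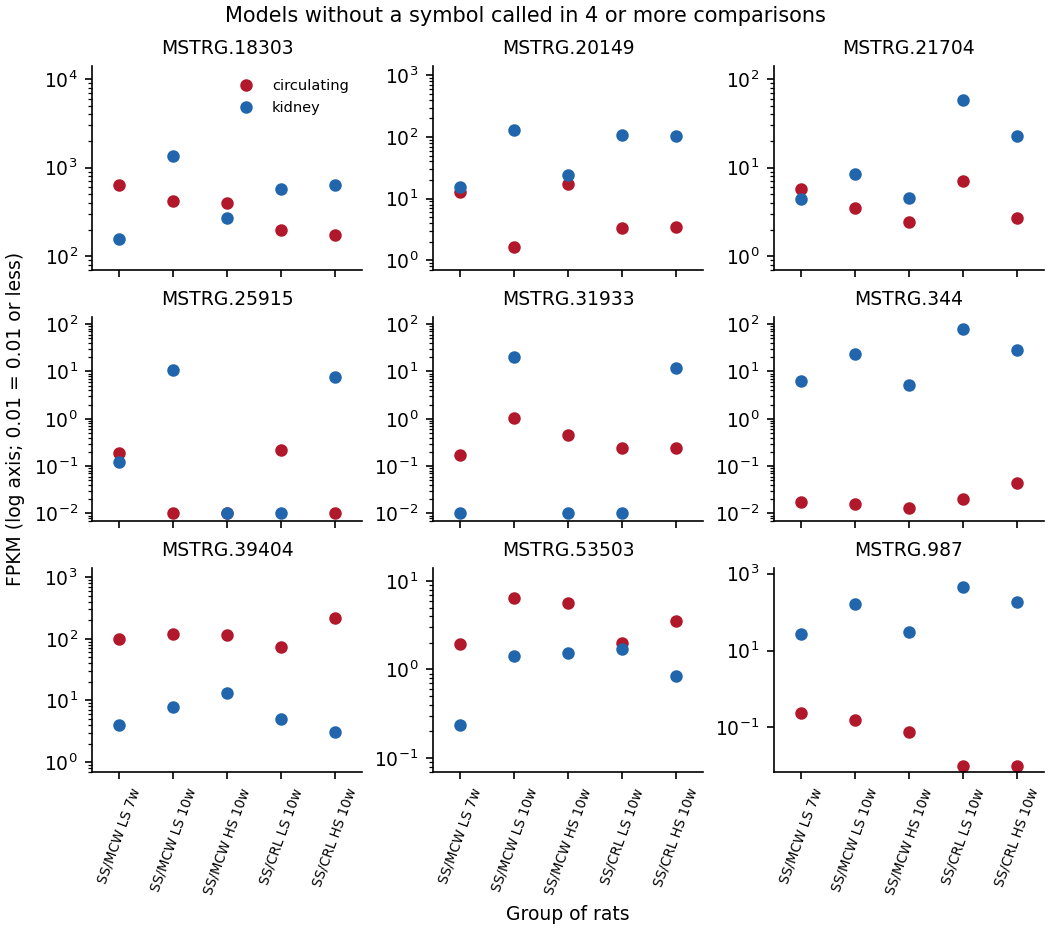
FPKM (log axis, own scale in each panel) of the 9 models without a symbol called in 4 or more of the 10 comparisons within a tissue, in circulating (red) and kidney (blue) T cells of the 5 groups of rats. Each point is the single value of a group. Points at 0.01 stand for 0.01 FPKM or less. For MSTRG.20149 the circulating value is lowest, 1.65, where the kidney value is highest, 132.

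Whether a member's salt effect differed between the rat types was tested by a normal z on the difference of the log2 changes, with a standard error from the deposited test statistic and Benjamini-Hochberg adjustment over all models. In kidney cells 0 of 3038 members passed an adjusted p of 0.05, against 0 of 16430 models in all, and 46 members had an unadjusted p below it. The SD of z over all models was 0.61 there and 1.32 in circulating cells, where 1 is the value of a standard normal. When the deposited p was used to set the standard error, 9 of 3038 members passed, against 60 of 16429 models in all. The largest z among the 9 members was that of MSTRG.3092 (chr1:138405158-138423281, near Klhl25), at 22.3 and 56.3 FPKM on LS and HS in SS/MCW and 37.1 and 15.0 in SS/CRL. MSTRG.27378 went the other way, from 41.1 to 7.77 and from 41.1 to 67.8 FPKM. In circulating cells 5 of 1799 members passed, against 6 of 16360 models in all. With the other standard error no member passed, against 1 of 16360 models, and 60 members had an unadjusted p below 0.05.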

How the data were processed

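RNA of circulating and kidney T cells was sequenced in 40 libraries in 10 groups. Per the submitters' processing notes, cutadapt, Trim Galore 0.2.5, TopHat, TopHat2 2.1.1, Cufflinks 2.2.1, Cuffdiff and build rn5 were used. The authors deposited 15 tables with 1 FPKM per group, a test statistic (a score), a p-value and a q-value, per the file headers. No value of a single library was used, so depth and its precision are unknown. FPKM divides by length, so a short model reaches 5 FPKM on few fragments. The smallest deposited p was 5e-05.

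Log2 changes were computed from FPKM, each with HS, SS/CRL, the age of 10 weeks or the kidney as numerator. Members and lists were chosen with earlier results of these data known. Models named are the 10 highest per tissue, the extreme tissue ratios, up to 3 called rises and falls per comparison with 5 FPKM and no 0, members called in both salt comparisons, those at the threshold, mitochondrial members, the largest runs and the extreme lengths. Not every one is described, and the receptor and RT1 regions, RefSeq intervals and recurrent calls were chosen after values were seen. The z test was run on simulated normal effects drawn with the same standard errors that the test uses. That checks the computation and cannot show whether those standard errors suit these data. Alternatives are listed in the closing section. Scripts ran in Python 3.11.15 with scipy 1.17.1 and pandas 2.3.3, over numpy 2.4.6, and figures were drawn in matplotlib 3.10.9.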

Additional observations from a re-analysis of the deposited data

Results flagged for a closer look

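In circulating cells, 5 of 1799 members passed the test that the salt effect differs between the rat types, against 6 of 16360 models in all. The difference is given here as the SS/MCW minus the SS/CRL log2 change. The difference was -2.31 for ENSRNOG00000041370 (chr11:417135-420208), with 121 FPKM on LS and 51.7 on HS in SS/MCW rats against 119 and 252 in SS/CRL rats. It was 2.49 for ENSRNOG00000048208 (chr16:49928367-49936495, near Klkb1), with 141 and 302 FPKM against 190 and 72.2. For MSTRG.54091 (chr8:36505239-36509456, near Rpusd4) it was 2.25, with 69.2 and 131 FPKM against 93.8 and 37.2, and for MSTRG.37046 (chr3:101156305-101174118, near Cstf3) 1.51, with 10.7 and 19.2 FPKM against 17.1 and 10.8. For MSTRG.39404 it was -1.58, with 106 and 105 FPKM against 66.9 and 197.

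In the first 4 the statistic and the p of the authors' deposited table were far apart: ENSRNOG00000048208 had statistics of 95.3 and -91.4 beside p-values of 0.536 and 0.457. None of these 4 was called in either salt comparison, with p-values between 0.326 and 0.664 in the authors' deposited table. MSTRG.39404 was called in SS/CRL only (p = 5e-05 in the authors' deposited table).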

How the results depend on the processing

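Counts of called members are given in the order salt in SS/MCW, salt in SS/CRL, rat type on LS, rat type on HS, and age. With the main rule they were 25, 309, 116, 251 and 52 in kidney and 5, 36, 16, 6 and 77 in circulating cells. A minimum of 1 FPKM with p adjusted again left all 10 within 1.5 times. At a q under 0.01 there were 0 calls for salt in SS/MCW and 30 for age in kidney, and 0, 0, 0, 0 and 35 in circulating cells. A normal p of the test statistic gave 5, 6, 4, 10 and 6 in kidney and 9, 8, 8, 6 and 5 in circulating cells, and of the 56 named calls 6 held. Restricting members to 5 FPKM in all 10 values (353) left 1, 7, 2, 15 and 4 in kidney and 0, 12, 7, 2 and 28 in circulating cells, and fewer members were tested by construction. Members at 10 FPKM gave 15 (salt in SS/MCW), 195 (salt in SS/CRL) and 126 (rat type on HS) in kidney and 2 (salt in SS/MCW) in circulating cells. Leaving out calls with a 0 gave 10, 173, 71, 96 and 27 in kidney and 3 for salt in SS/MCW in circulating cells, where loci of 300 bases or more also gave 3. Other causes were not tested.

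The rat-type difference passed for 9 members in kidney and 0 in circulating cells with standard errors from p, against 60 and 1 of all models. The median log2 kidney over circulating ratio of 0.71 was 0.46 to 0.57 with other thresholds, lengths or a pseudocount of 1, ranged from 0.63 to 0.93 with a group of rats left out, and was 0.056 with the SS/MCW values alone, a setting chosen after seeing the data. Runs held 835 members at gaps up to 1000 bases and 2575 at up to 50000. The share of close pairs with the same sign was 73.1% to 75.1%. No paired analysis was possible because the tables hold 1 value per group, although blood and kidney libraries share pool numbers. For the same reason no library could be left out, and depth limits each value by an unknown amount.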
